A study of Mus musculus with 2197 samples.

Results

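Vegfa, Vegfb, Kdr, Flt1, Nrp1, Cxcl12 and Cxcr4 encode ligands and receptors through which tissues address blood vessels, and they were followed here in every sort and day of a study of the developing mouse pancreas. These 7 genes were chosen by name, with earlier results of these data known. The table of single-cell read counts held 40824 genes and the tables of 2 droplet libraries 27998. VEGF-A, the ligand encoded by Vegfa, binds the receptor tyrosine kinases encoded by Kdr (VEGFR2, the main signalling receptor of endothelium) and Flt1 (VEGFR1, which binds the ligand tightly and signals weakly), with the protein of Nrp1 (neuropilin-1) as a co-receptor that also serves semaphorins and is carried by many cells other than endothelium. VEGF-B, encoded by Vegfb, binds Flt1 and Nrp1 proteins but not that of Kdr. The chemokine encoded by Cxcl12 acts on the receptor encoded by Cxcr4, which is found on endothelium, leukocytes and several progenitor cells. Pancreatic beta cells are a known source of VEGF-A, and the dense capillary network of the islet depends on it.

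Single cells were sorted from mouse embryos by a fluorescent reporter and sequenced with Smart-seq2, which reads whole transcripts. Each sort is named by its reporter. Pdx1-GFP+ cells were taken at E9.5, E10.5 and E11.5 and Pdx1-GFPhigh cells at E10.5; Pdx1-Cre;Rosa-RFP+ cells, in which the Cre marks the pancreatic epithelium and its descendants, came from each day between E10.5 and E15.5. Ptf1a-CreER;Rosa-RFP+ cells and Ngn3-Cre;Rosa-RFP+ cells came from E11.5, and Sox9-CreER;Rosa-RFP+ cells, sorted as duct, from E16.5 and E17.5. The Ngn3-GFP knock-in marks endocrine progenitors and cells that recently were; it gave Ngn3-GFPlow and Ngn3-GFPhigh cells on each day between E13.5 and E15.5, and unsplit Ngn3-GFP+ cells at E10.5, E12.5, E16.5 and E17.5, where the 2 fractions were not separated. Hormone reporters gave Ins1-RFP+ cells at E15.5 and Gcg-GFP+ cells at E15.5 and E17.5 (beta and alpha cells). Ins1-RFP+ cells also came from E13.0 dorsal pancreata that were pooled by 3 on a membrane and cultured for 2 days as explants, as control or with 10 µM U0126, an inhibitor of MEK1 and MEK2. The droplet libraries held unsorted E14.5 pancreas.

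The 2195 Smart-seq2 cells fell into 82 sets (the number the titles put before the cell number) in 29 groups; a set held 6 to 71 cells and 2838610 to 79253014 counts, and a cell had a median of 809389 counts. Counts were summed per set, and levels are given as CPM (a gene's counts scaled to the same total in every set), without spike-ins. In such sums, fewer cells of a type and less RNA per cell cannot be told apart. Hormone genes followed the hormone sorts: Ins2 averaged 61951 CPM in Ins1-RFP+ and 48.55 in Gcg-GFP+ cells, and Gcg 15.2 and 54859 CPM. Neurog3, the gene that Ngn3-GFP reports, averaged 758.7 CPM in Ngn3-GFPhigh and 297.5 in Ngn3-GFPlow cells at E14.5, while at E13.5 Gcg stood at 21829 ± 21263 CPM (SD, n = 3 sets) in Ngn3-GFPlow and at 4359 ± 3775 in Ngn3-GFPhigh cells. Other cell types were present in some sorts. A cell was marked as of another type when at least 4 of the 8 to 10 listed markers of that type reached 100 CPM: 153 cells were marked as leukocyte, 18 as mesenchyme and 2 as endothelium. Leukocyte-marked cells made up 52 of 118 Ngn3-GFPlow cells at E13.5, 31 of 104 at E14.5 and 15 of 37 at E15.5, and 38 of 121 Ngn3-GFP+ cells at E12.5, so calls between these sorts are given with and without marked cells.

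The promoters of the members that parted in the sorted cells at E14.5 are shown first. Nrp1, Cxcl12 and Cxcr4 were each called lower there in the Ngn3-GFPhigh fraction, set against Ngn3-GFPlow, while Vegfa was not. Without marked cells the Nrp1 call was lost and those of Cxcl12 and Cxcr4 held. Leukocyte-marked cells held much of that Nrp1 and next to no Cxcl12, so the lower levels do not lie in the same cells throughout. Each run is the 250 bases before the RefSeq start of the gene on GRCm38.p6 (the mm10 build), read 5′ to 3′ on the gene's strand, with GC boxes (GGGCGG on either strand, in runs where copies may overlap) in capitals; all 7 members matched, and of 2 Vegfa entries the one nearest the annotated start was taken.
Vegfa promoter, chr17:46032378-46032627, minus strand: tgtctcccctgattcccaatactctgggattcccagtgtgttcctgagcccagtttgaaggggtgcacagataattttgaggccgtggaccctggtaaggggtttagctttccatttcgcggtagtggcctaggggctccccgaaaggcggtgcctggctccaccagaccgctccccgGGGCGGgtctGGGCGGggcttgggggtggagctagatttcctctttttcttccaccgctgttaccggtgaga
Nrp1 promoter, chr8:128358823-128359072, plus strand: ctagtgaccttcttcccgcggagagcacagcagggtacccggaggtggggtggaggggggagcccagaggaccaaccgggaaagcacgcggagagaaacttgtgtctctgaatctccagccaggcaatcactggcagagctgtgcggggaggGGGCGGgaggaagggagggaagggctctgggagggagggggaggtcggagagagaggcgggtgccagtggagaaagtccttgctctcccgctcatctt
Cxcl12 promoter, chr6:117168285-117168534, plus strand: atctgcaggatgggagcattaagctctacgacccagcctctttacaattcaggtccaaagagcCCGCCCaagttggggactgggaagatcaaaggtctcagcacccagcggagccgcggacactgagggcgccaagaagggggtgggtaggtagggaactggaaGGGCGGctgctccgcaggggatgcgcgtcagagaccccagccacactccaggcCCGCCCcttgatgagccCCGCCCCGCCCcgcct
Cxcr4 promoter, chr1:128592300-128592549, minus strand: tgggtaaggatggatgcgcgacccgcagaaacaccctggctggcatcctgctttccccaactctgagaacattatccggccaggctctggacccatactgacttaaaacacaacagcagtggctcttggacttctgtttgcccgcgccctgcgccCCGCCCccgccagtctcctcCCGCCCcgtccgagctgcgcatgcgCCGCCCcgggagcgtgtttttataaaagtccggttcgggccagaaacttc
A GC box, the kind of site that Sp1-family factors bind, was found in 7 of 7 members, against 32.7% of 32817 RefSeq promoters of the same length: 2 copies in Vegfa, 4 in Vegfb, 2 in Kdr, 3 in Flt1, 1 in Nrp1, 5 in Cxcl12 and 3 in Cxcr4. The core of the hypoxia response element (ACGTG or GCGTG, either strand) was found in 5 of 7, all but Vegfa and Cxcl12, against 38.6% of promoters. An E-box (CANNTG), the site of factors such as that encoded by Neurog3, was found in 2 of 7, Vegfb and Kdr, against 66.2% of promoters, and TATAAA on either strand in 2 of 7, Flt1 and Cxcr4, against 12.4%. These are matches of letters within this window. The genes themselves are protein coding and lie, by the GENCODE annotation, at chr17:46016993-46032369 (Vegfa, ENSMUSG00000023951), chr19:6982473-6987651 (Vegfb, ENSMUSG00000024962), chr5:75932827-75978458 (Kdr, ENSMUSG00000062960), chr5:147561604-147726011 (Flt1, ENSMUSG00000029648), chr8:128358604-128503363 (Nrp1, ENSMUSG00000025810), chr6:117168535-117181367 (Cxcl12, ENSMUSG00000061353) and chr1:128588199-128592293 (Cxcr4, ENSMUSG00000045382).

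Vegfa, the main growth signal to islet vessels, had its highest level in beta cells. In the 2 sets of Ins1-RFP+ cells at E15.5 Vegfa stood at 48.97 and 41.6 CPM, and in the 4 sets of control explants at 75.2, 41.4, 27.2 and 32.5 CPM. Gcg-GFP+ cells of E15.5 held 17.7 and 8.07 CPM. These 6 beta cell sets lay above both alpha cell sets of E15.5 and above the 1 set of E17.5 (18.1 CPM), while of the beta cell sets treated with U0126, described further on, 1 lay at 15.49 CPM. The count was spread over most beta cells: 31 of 39 Ins1-RFP+ cells (79.5%) reached 10 CPM of Vegfa, against 12 of 36 Gcg-GFP+ cells (33.3%). By group mean, Vegfa ran from Ins1-RFP+ at E15.5 (45.3 ± 5.21 CPM, SD, n = 2 sets) through control explants (44.1), U0126 explants (29.99), Ngn3-GFP+ E17.5 (28.9) and Ngn3-GFPhigh E15.5 (26.5) and E14.5 (24.5) down to Pdx1-GFP+ E11.5 (4.15) and Ngn3-Cre E11.5 (3.54). No step in that order separated neighbours, since the sets of each group overlapped those of the next. Over all sorts, 1100 of 2195 cells (50.1%) had a Vegfa count.

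**Figure D1:**
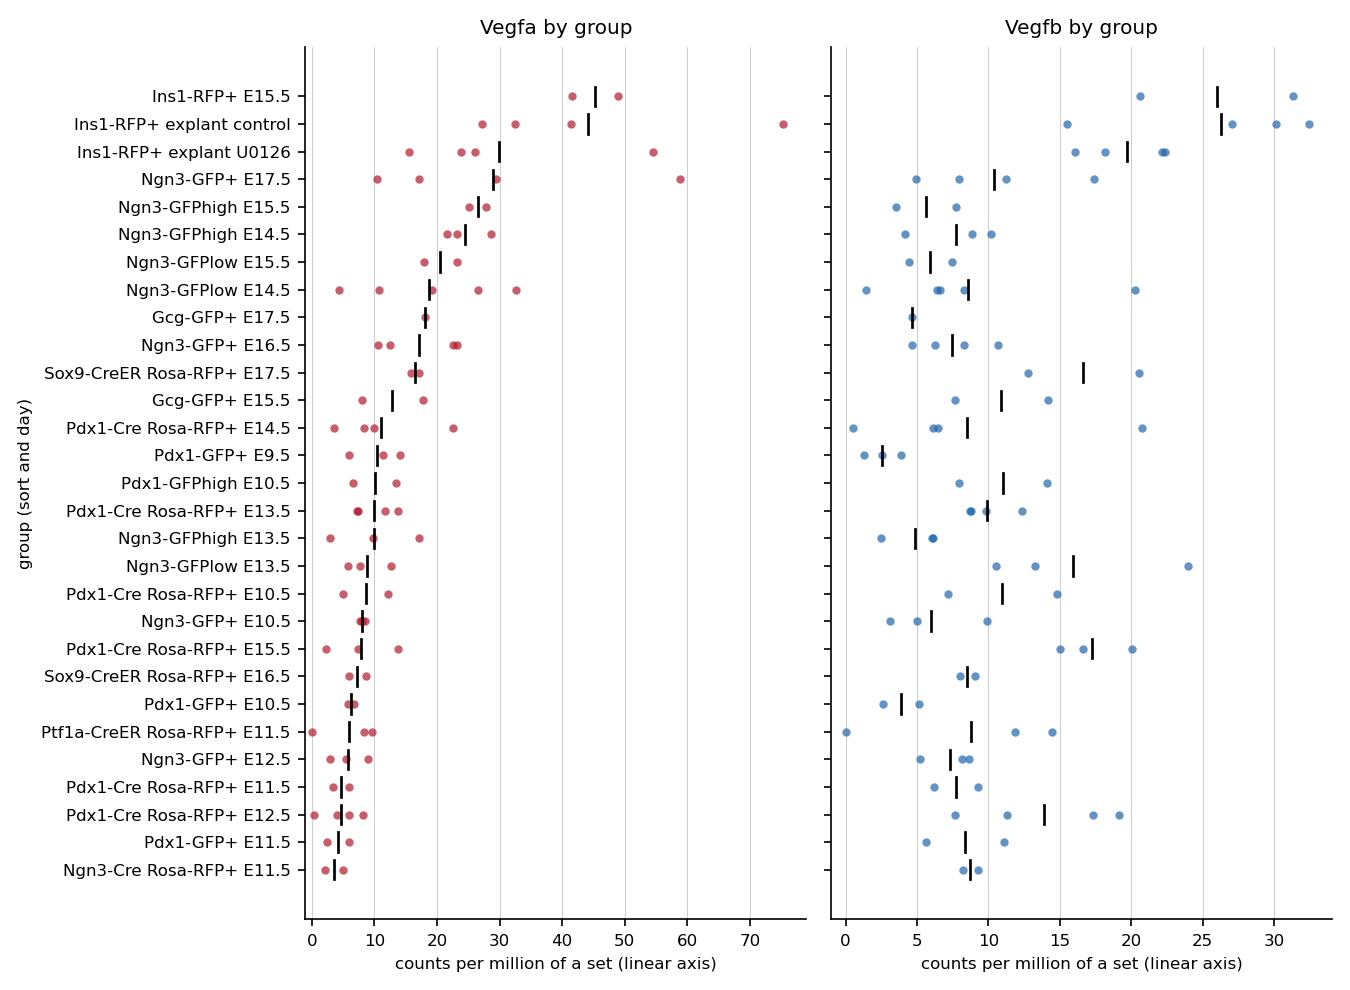
Vegfa and Vegfb in CPM (linear axis) for each set (points) and as group means (bars), with groups ordered by mean Vegfa. The Ins1-RFP+ sets of E15.5 sit at 41.6 and 48.97 CPM of Vegfa, and the control explants reach 75.2.

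The question of whether beta and alpha cells differ at E15.5 was put to edgeR's quasi-likelihood test over all genes. Of 17595 genes tested, 122 (0.693%) passed the adjusted p of 0.05 (Benjamini-Hochberg), and 0 of the members were among them. Vegfa was 1.98 ± 0.73 higher on the log2 scale in Ins1-RFP+ than in Gcg-GFP+ cells (log2 fold change ± SE; adjusted p = 0.29), and Vegfb 1.38 ± 0.67 higher (adjusted p = 0.414). Their sets did not overlap, but with 2 sets against 2 neither did those of 44.2% of the genes with at least 10 counts. Both hormone sorts were then set against all Pdx1-Cre lineage cells of E15.5. In that comparison, which shares the hormone sets with the first, 2541 genes (14.4%) were called, and 3 members, Nrp1, Cxcl12 and Cxcr4, all lower in hormone cells, as were 10.6% of genes. Vegfa held 7.45, 2.31 and 13.7 CPM in the Pdx1-Cre sets and was 1.49 ± 0.56 higher in hormone cells, which edgeR did not call (adjusted p = 0.107). DESeq2 called it, at 1.52 (adjusted p = 0.0257).

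None of the 4 members that could be tested (Vegfa, Vegfb, Nrp1 and Cxcl12) passed between U0126 and control explants, or between cultured and fresh beta cells. Vegfa stood at 54.55, 26.1, 15.49 and 23.8 CPM in the 4 sets of U0126 explants, 3 of the 4 below the lowest control set. edgeR called 0 of 14721 genes between U0126 and control explants (0%), 716 had an unadjusted p under 0.05, and DESeq2 called 12. The log2 difference of Vegfa was -0.53 ± 0.39 and that of Vegfb -0.39 ± 0.33. Control explants, which enter this comparison too, were set against fresh Ins1-RFP+ cells of E15.5, where 36 genes (0.245%) but 0 members were called. Vegfa differed there by -0.08 ± 0.48 and Vegfb by -0.01 ± 0.40, on the log2 scale. A Vegfa count of at least 10 CPM was present in 43 of 58 control cells (74.1%) and 37 of 60 U0126 cells (61.7%).

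Among Ngn3-GFP+ cells, Vegfa was higher on the late days than on the early ones, and the make-up of the sort differed too. Ins2 averaged 12.18 and 19.41 CPM at E10.5 and E12.5, and 29593 and 32415 CPM at E16.5 and E17.5. The part of beta cells in the Vegfa difference was not tested. At E10.5 the 3 sets held 7.65, 7.97 and 8.47 CPM of Vegfa, and at E12.5 they held 5.43, 9.03 and 2.84 CPM. At E16.5 the 4 sets held 23.2, 22.5, 12.45 and 10.51 CPM, and at E17.5 they held 58.75, 29.4, 17.1 and 10.4 CPM. Every late set lay above every early set, which was so for 5.49% of genes in either direction. Between the late and the early days 3757 of 19059 genes (19.7%) passed, and with them 5 members: Vegfa and Cxcl12 higher late, Nrp1, Kdr and Flt1 lower. Vegfa was higher by 1.78 ± 0.39 on the log2 scale (edgeR, adjusted p = 0.00588). The Vegfa call held in each of the 14 fits that left out a set, with differences from 1.53 to 2.02, and without marked cells (1.38 ± 0.36, adjusted p = 0.0217).

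The same late Ngn3-GFP+ sets were compared with the duct sort, Sox9-CreER;Rosa-RFP+ cells of E16.5 and E17.5. Vegfa stood at 8.69 and 5.88 CPM in the duct sets of E16.5 and at 17.1 and 15.9 CPM in those of E17.5. The difference of 0.96 ± 0.44 was not called (adjusted p = 0.127, edgeR). With the set number as a block it was 1.41 ± 0.36 (edgeR, adjusted p = 0.0155). The duct sort had only sets 1 and 2 on each day, so sets 3 and 4 of Ngn3-GFP+ had no duct set of their number. Deviations of same-numbered sets of the 2 sorts correlated by only -0.049 to 0.024, so the block value is no firmer than the uncalled one. Of 19059 genes, 4764 (25%) passed here, 11.4% of all as lower in Ngn3-GFP+ cells, and 2 members, Nrp1 and Cxcl12, both lower.

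Within the late Ngn3-GFP+ sort, cells could be told apart by hormone: 87 cells had Ins2 at 10000 CPM or more and above Gcg, 47 the reverse, and all 8 sets held both kinds. Vegfa ran from 11.8 over a median of 27.99 to 93.4 CPM in Ins2-dominant cells and from 3.18 over 10.3 to 25.6 CPM in Gcg-dominant cells. It was higher in the Ins2-dominant cells in 7 of 8 sets. With the set as a term of the fit the difference was 1.52 ± 0.61 on the log2 scale, which edgeR did not call (adjusted p = 0.191) and DESeq2 did (1.47 ± 0.51, adjusted p = 0.0284); 776 of 10970 genes (7.07%) passed, and 0 members. Vegfb went the other way in 7 of 8 sets, with medians of 6.65 CPM in Ins2-dominant and 11.6 CPM in Gcg-dominant cells (-0.52 ± 0.95, adjusted p = 0.850). Nrp1 was higher in Gcg-dominant cells in 6 of 8 sets, with medians of 1.65 CPM in Ins2-dominant and 14.49 CPM in Gcg-dominant cells. It was not called (-3.04 ± 2.44, edgeR adjusted p = 0.590). The sets of E16.5 were split 2 to 2, and all 4 of E17.5 were higher on the Gcg side.

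**Figure D2:**
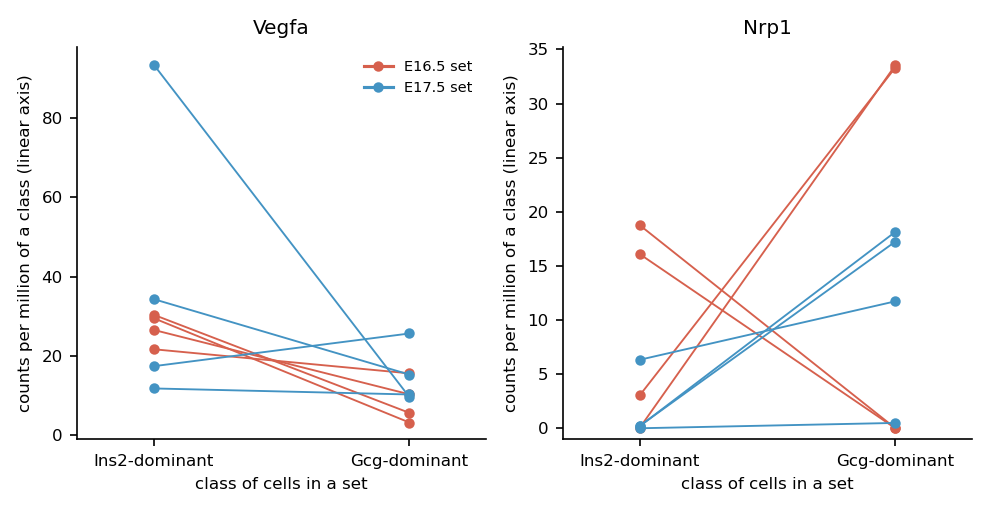
Vegfa and Nrp1 (CPM) in Ins2-dominant and Gcg-dominant cells of the same Ngn3-GFP+ set, joined by a line per set and coloured by day (E16.5 or E17.5). Vegfa is higher on the Ins2 side in 7 of 8 sets and Nrp1 on the Gcg side in 6 of 8 (2 of 4 at E16.5).

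Vegfa was not called between the 2 Ngn3-GFP fractions on any of the 3 days. At E14.5 Ngn3-GFPhigh sets held 23.2, 28.6 and 21.6 CPM of Vegfa and Ngn3-GFPlow sets 32.6, 26.6, 4.39, 19.25 and 10.7 CPM, with overlap, while at E15.5 they held 27.9 and 25.1 CPM against 17.9 and 23.15 CPM, without, as was so for 56.2% of genes on that day. The log2 difference was 0.12 ± 0.63 at E13.5, 0.27 ± 0.56 at E14.5 and 0.25 ± 0.77 at E15.5. Its adjusted p was 0.956 at E13.5 and 0.797 at E14.5 (edgeR), and without marked cells the sign turned at E13.5 and E15.5 (-0.50 and -0.35). Leukocyte-marked cells carried almost no Vegfa: in the 15 sets that held such cells, their median was 0.0444 CPM against 13.4 CPM in the unmarked cells, and it was lower in 15 of 15. Within the Ngn3-GFPhigh sort, 106 cells with Neurog3 at 100 CPM or more were compared with 102 cells under 10 CPM in the same 8 sets. Vegfa had medians of 15.6 and 26.3 CPM there (0.08 ± 0.71, adjusted p = 0.963). It was higher in the Neurog3-positive cells in 3 of 3 sets of E13.5 and lower in 3 of 3 sets of E14.5 and 2 of 2 of E15.5, so the averaged difference joins days of opposite direction; the difference between days was not tested. Over the 8 sets edgeR called 1611 of 12537 genes (12.8%) but 0 members.

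Vegfb, the second VEGF ligand, had its highest group means in the beta cell sorts, with no call between Ins1-RFP+ and Gcg-GFP+ cells. Within the late Ngn3-GFP+ sets it was lower in Ins2-dominant than in Gcg-dominant cells in 7 of 8 sets. It was lower, too, in the Chga-positive droplet barcodes described further on. Scaled by the gene length in the deposited table (length-scaled CPM), Vegfb averaged 35.3 ± 11.2 and Vegfa 22.8 ± 3.26 in Ins1-RFP+ cells of E15.5, and 38.5 ± 11.1 and 23.9 ± 11.52 in control explants. Per length the mean of Vegfb was the higher of the 2 in both groups; that difference was not tested. As CPM, the Ins1-RFP+ sets of E15.5 held 31.3 and 20.6 of Vegfb, the Gcg-GFP+ sets 7.68 and 14.1, and the control explants 32.4, 27.1, 15.49 and 30.1. Group means ran from control explants (26.3 CPM) over Ins1-RFP+ E15.5 (25.98), U0126 explants (19.7) and Pdx1-Cre E15.5 (17.2) to Pdx1-GFP+ E10.5 (3.86) and E9.5 (2.56), with overlap between these neighbours. Vegfb had a count in 925 cells (42.1%), and 18 of 39 Ins1-RFP+ cells had both ligands at 10 CPM or more. Vegfb was called in none of the Smart-seq2 comparisons. Between late and early Ngn3-GFP+ cells it differed by 0.48 ± 0.36 (edgeR, adjusted p = 0.387), and between Ngn3-GFPhigh and Ngn3-GFPlow cells of E13.5 by -1.78 ± 0.75 (adjusted p = 0.180). With the set number as a block the E13.5 difference was called (-1.83 ± 0.45, adjusted p = 0.0420), and without marked cells and without the block it was not (-1.30 ± 0.88, adjusted p = 0.547). In the sets that held leukocyte-marked cells, Vegfb was as high in those cells (median 8.07 CPM) as in the unmarked ones (6.47 CPM), unlike Vegfa.

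The 2 receptor kinases of the VEGF ligands were found in few sorted cells, Kdr mostly in marked cells and Flt1 mostly in unmarked ones. Kdr had a count in 20 of 2195 cells (0.911%), and 98.4% of its 3160 counts were in 10 cells. The 2 endothelium-marked cells held 76.9% of Kdr counts, and all marked cells together 92.8%. One of the endothelium-marked cells lay in Ngn3-GFPlow E13.5, where Kdr stood at 0.759, 19.85 and 0 CPM and 94.8% of counts came from that cell. The other lay in Ngn3-GFP+ E12.5, with 16.95, 0 and 2.38 CPM and 89.7% of counts in that cell. Kdr had no count in the fresh hormone sorts or in any Pdx1-Cre group, and 1 count in the Ins1-RFP+ cells of the U0126 explants. In the hormone sorts of E15.5 a count of 0 allows up to 0.0326 CPM (3 counts over both sorts). Flt1 had a count in 76 cells (3.46%), with 36.7% of 4128 counts in marked cells and 72.4% in 10 cells. Its highest set was in Ngn3-GFP+ E10.5 (64.2, 0 and 0.0340 CPM), where 8 cells had a count and none was endothelium-marked. Next by group mean came Pdx1-Cre E11.5, which held no marked cell: its sets stood at 22.85 and 0.0438 CPM, and 15 of 80 cells had a Flt1 count. Both receptor genes were lower in late than in early Ngn3-GFP+ cells by edgeR, Kdr with an adjusted p of 0.0476 and Flt1 with one of 0.0140. The Kdr call was lost in 12 of 14 fits that left out a set, without marked cells, with DESeq2 (adjusted p = 0.0517), with no filter on low counts (0.0520) and with the set number as a block (0.302). The Flt1 call held without marked cells (adjusted p = 0.0332), was lost without set 1 of E10.5 (adjusted p = 0.176), and had no adjusted p from DESeq2. Of the endothelium list, 5 of 9 tested genes fell with them, where 19.7% of all genes passed in either direction. Without marked cells 0 of 8 tested genes of that list passed, while the Flt1 call held. The part of endothelial cells in the result was not tested further.

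Nrp1, the co-receptor, was widespread, with a count in 1149 cells, and had its highest mean levels in Ngn3-GFPlow cells of E13.5 and E14.5, though their sets overlapped those of other groups. At E13.5 Ngn3-GFPhigh sets held 17.6, 10.2 and 26.3 CPM of Nrp1 and Ngn3-GFPlow sets 72.7, 313.6 and 177 CPM. At E14.5 they held 9.51, 13.6 and 4.76 CPM against 102, 60.15, 272, 186.6 and 203.9 CPM. At E15.5 they held 34.04 and 11.7 CPM against 91.7 and 62.4 CPM. On each day every Ngn3-GFPlow set was above every Ngn3-GFPhigh set, as was the case, in either direction, for 24.9%, 22.1% and 56.2% of genes. Of 18989 genes tested in the 3 days, 1181 (6.22%), 2857 (15%) and 1706 (8.98%) passed, with 1, 3 and 2 members, each lower in Ngn3-GFPhigh, as were 4.61%, 9.01% and 5.58% of genes. Nrp1 was lower in Ngn3-GFPhigh by 3.53 ± 0.71 at E13.5 (log2 fold change -3.53, edgeR adjusted p = 0.0109) and by 4.36 ± 0.72 at E14.5 (log2 fold change -4.36, adjusted p = 0.00145). At E15.5 the difference of -1.88 ± 0.82 was not called (adjusted p = 0.166; -1.61 and 0.496 without marked cells). The E13.5 call was lost without set 1 or set 2 of Ngn3-GFPhigh (highest adjusted p = 0.0517).

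Much of that Nrp1 lay in leukocyte-marked cells. They held 87.8% of the Nrp1 counts of Ngn3-GFPlow cells at E13.5, 66.5% at E14.5 and 44.7% at E15.5, and the median over the 15 sets with such cells was 309.7 CPM in them against 47.4 CPM in the unmarked cells of the same sets (higher in 14 of 15). Without marked cells Nrp1 averaged 36.8 ± 31.9, 52.65 ± 29.6 and 72.7 ± 32.2 CPM in Ngn3-GFPlow cells on the 3 days, so these means did not fall with the day as they did over all cells, and neither call held: the log2 difference was -0.97 ± 1.02 at E13.5 (edgeR, adjusted p = 0.764) and -2.46 ± 1.00 at E14.5 (adjusted p = 0.135). The 10 genes of the leukocyte list were lower in Ngn3-GFPhigh in 10 of 10 cases on each day (median log2 fold changes -10.45, -11.12 and -12.36), and their summed level ran over the sets from 1450 to 9029, 9.41 to 10741 and 6109 to 7517 CPM in Ngn3-GFPlow against at most 13.05 CPM in Ngn3-GFPhigh.

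**Figure D3:**
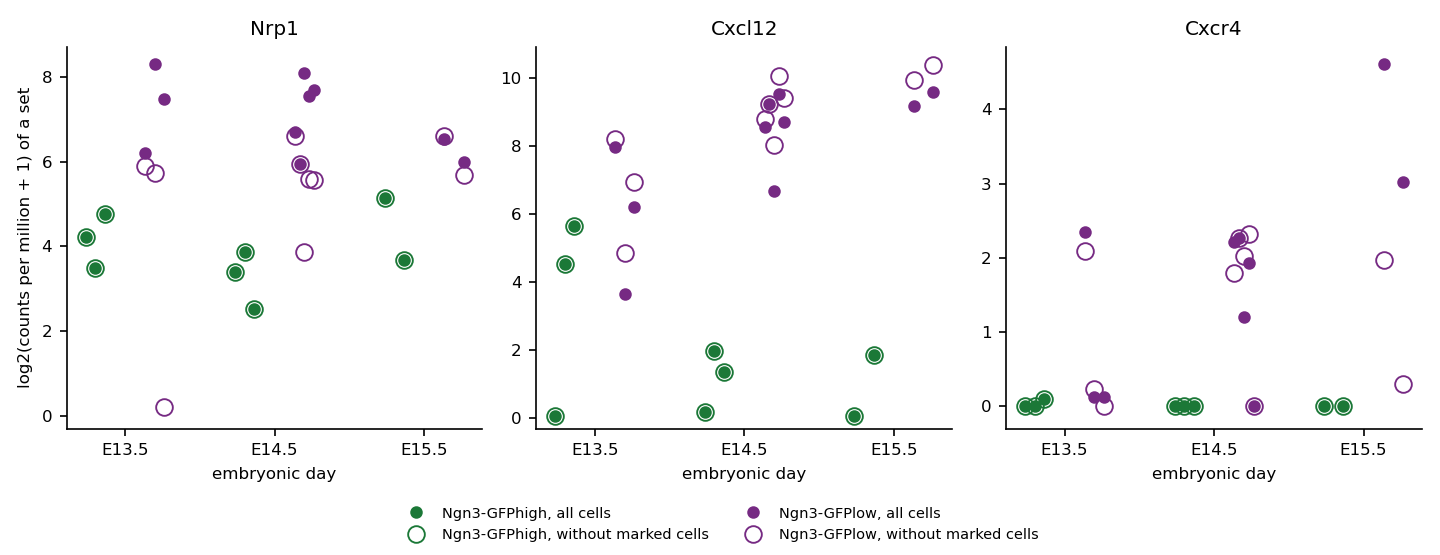
Nrp1, Cxcl12 and Cxcr4 as log2(CPM + 1) in each Ngn3-GFPhigh and Ngn3-GFPlow set by day, with all cells (filled) and without marked cells (open). Leaving out marked cells brings Nrp1 of the Ngn3-GFPlow sets down to means of 36.8 CPM at E13.5 and 52.65 at E14.5, while Cxcl12 stays high.

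Outside the Ngn3-GFP fractions, Nrp1 was lowest in hormone cells. Ins1-RFP+ sets of E15.5 held 0.107 and 3.02 CPM, Gcg-GFP+ sets 10.2 and 2.38 CPM, and the Pdx1-Cre sets of that day 216.7, 100.7 and 61.8 CPM. The groups did not overlap, nor did they for 24.2% of genes. The log2 difference between both hormone sorts and Pdx1-Cre cells was -5.44 ± 0.88 (edgeR, adjusted p = 0.00434), and it held in 7 of 7 fits that left out a set and without marked cells (-4.72 ± 0.82, adjusted p = 0.00540). In late Ngn3-GFP+ cells Nrp1 stood at 11.3, 8.29, 43.25 and 37.1 CPM at E16.5 and at 6.62, 9.19, 17.1 and 3.63 CPM at E17.5, and the duct sets at 171.1, 80.6, 58.6 and 41.3 CPM. All but the late set of 43.25 CPM lay below every duct set. That difference was -2.46 ± 0.43 (adjusted p = 0.000724) and was called in 12 of 12 fits that left out a set and without marked cells. Against early Ngn3-GFP+ cells, with 30.6, 32.1 and 57 CPM at E10.5 and 151.7, 98.1 and 160.8 CPM at E12.5, the late cells were lower by 2.22 ± 0.40 (log2 fold change -2.22, adjusted p = 0.00142). Leukocyte-marked cells held 72.7% of the Nrp1 counts at E12.5 and 42.1% at E10.5, and without marked cells the difference of -1.54 ± 0.51 was not called (adjusted p = 0.0606). The 10 leukocyte markers were also 10 of 10 lower in the late cells. By group mean, Nrp1 ran from Ngn3-GFPlow E13.5 (187.8 CPM) and E14.5 (164.9), Ngn3-GFP+ E12.5 (136.9) and Pdx1-Cre E15.5 (126.4) to Ins1-RFP+ E15.5 (1.56) and the U0126 explants (1.49).

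**Figure D4:**
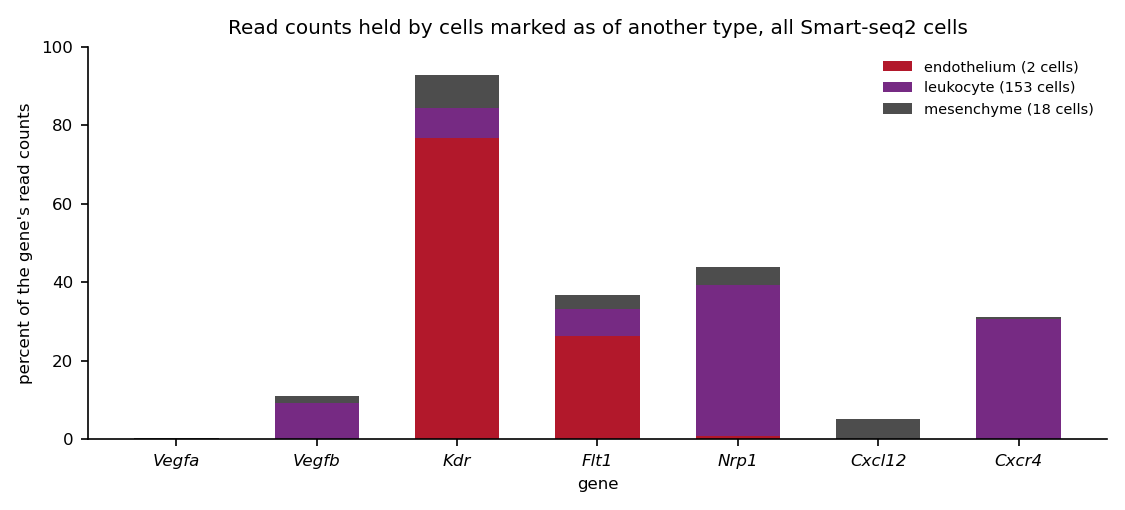
Share (%) of each member's Smart-seq2 counts held by cells marked as endothelium (2 cells), leukocyte (153) and mesenchyme (18), stacked. Endothelium-marked cells hold 76.9% of Kdr, leukocyte-marked cells 38.4% of Nrp1, and marked cells 0.352% of Vegfa.

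Cxcl12, the chemokine gene, was highest in the late duct sort and in Ngn3-GFPlow cells and at or near 0 in hormone cells of E15.5. At E14.5 the Ngn3-GFPlow sets held 377.9, 606.4, 101.9, 751 and 420.7 CPM of Cxcl12 and the Ngn3-GFPhigh sets 0.144, 2.96 and 1.59 CPM. At E15.5 they held 586.3 and 767.3 CPM against 0.0498 and 2.625 CPM. At E13.5 the fractions overlapped, with 253, 11.75 and 73.1 CPM against 0.0555, 22.1 and 49.65 CPM, and Cxcl12 was not called (-2.32 ± 1.42, adjusted p = 0.366; -2.64 and 0.378 without marked cells). It was lower in Ngn3-GFPhigh at E14.5 (log2 fold change -8.31 ± 1.85, edgeR adjusted p = 0.00762) and at E15.5 (-9.02 ± 2.37, adjusted p = 0.0288). Leukocyte-marked cells held next to none of it (median 0 CPM, against 124.1 CPM in the unmarked cells of the same sets), and without marked cells both calls held (-8.58 at E14.5, adjusted p = 0.00663, and -9.64 at E15.5, adjusted p = 0.025). With only 2 sets a group at E15.5, that call was lost in all 4 fits that left out a set (set 1 or 2 of either fraction, adjusted p from 0.0583 to 0.176) and with the set number as a block (adjusted p = 0.0537).

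The duct sort gave the highest level of Cxcl12: 77.7 and 97.4 CPM at E16.5, then 454.8 and 1167 CPM at E17.5, where 31 of 34 cells reached 10 CPM. Late Ngn3-GFP+ sets held 20.7, 13.9, 88.2 and 296.8 CPM at E16.5 and 31.2, 7.86, 15.2 and 2.21 CPM at E17.5. They differed from duct by -2.89 ± 0.67 on the log2 scale (edgeR, adjusted p = 0.00565), in 12 of 12 fits that left out a set. Early Ngn3-GFP+ sets held 6.27, 4.04 and 4.22 CPM at E10.5 and 14.1, 27.55 and 8.35 CPM at E12.5, and the late rise of 2.12 ± 0.66 (adjusted p = 0.0356) was less firm. It was lost in 7 of 14 fits that left out a set (any of the 3 sets of E10.5, sets 1 and 3 of E12.5, set 4 of E16.5 and set 1 of E17.5; adjusted p at most 0.0859), without marked cells (1.70, adjusted p = 0.0992) and with the set number as a block (1.71, adjusted p = 0.160) and in 1 fit over all 29 groups (2.16, adjusted p = 0.129). Hormone cells of E15.5 held 0.535 and 0 CPM (Ins1-RFP+) and 0 and 0.0355 CPM (Gcg-GFP+), against 192.5, 0 and 47.65 CPM in Pdx1-Cre cells. The test called this difference (-10.46 ± 2.17, adjusted p = 0.0132), although 1 Pdx1-Cre set was at 0, and the call was lost without any 1 of the 4 hormone sets (adjusted p from 0.0523 to 0.0667). Mesenchyme markers were lower in hormone cells as well (7 of 8), with a summed level of 34.9 to 3651 CPM in the Pdx1-Cre sets; without marked cells the Cxcl12 call held (-9.92, adjusted p = 0.0107). In order of group mean, Sox9-CreER E17.5 (810.8 CPM), Ngn3-GFPlow E15.5 (676.8) and E14.5 (451.6), Pdx1-Cre E13.5 (141.3) and Ngn3-GFPlow E13.5 (112.6) led, and Ins1-RFP+ (0.267) and Gcg-GFP+ E15.5 (0.0178) came last.

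Cxcr4, the receptor gene of Cxcl12, was rare. It had a count in 184 cells (8.38%), and 36.1% of its 1884 counts were in 10 cells. Ngn3-GFPhigh cells had no Cxcr4 count at E14.5 or E15.5, while Ngn3-GFPlow sets held 3.64, 3.81, 1.305, 2.80 and 0 CPM at E14.5 and 23.4 and 7.14 CPM at E15.5. With the mean of the sets set against the 3 counts that a count of 0 allows over a group, Ngn3-GFPlow was at least 82.1-fold higher at E14.5, with 1 of its 5 sets at 0, and at least 250-fold higher at E15.5. edgeR called both (adjusted p = 0.0240 and 0.0471). The E15.5 value lay mostly in leukocyte-marked cells, which held 93.8% of the counts, and unmarked cells averaged 1.57 CPM. Without marked cells the E14.5 call held (adjusted p = 0.0442) and the E15.5 call did not (0.168). The E14.5 call was lost without set 1, 2 or 3 of Ngn3-GFPhigh (adjusted p from 0.0710 to 0.0773), and the E15.5 call in all 4 fits that left out set 1 or 2 of either fraction (0.102 to 0.222), with the set number as a block (0.0514) and with no filter on low counts (0.0575). Neither the hormone sorts of E15.5 nor the explants had a Cxcr4 count. Pdx1-Cre cells of E15.5, with 0.688, 0.433 and 2.46 CPM, were by their mean at least 36.5-fold higher than the hormone cells (edgeR, adjusted p = 0.0199; 0.0418 without marked cells). That call was lost without set 2 of Gcg-GFP+ or set 1 or 2 of Ins1-RFP+ (0.0519 to 0.0573) and with the block (0.0766). By group mean, Ngn3-GFPlow E15.5 (15.3 CPM) stood apart from Ngn3-GFPlow E14.5 (2.31), while the next, Sox9-CreER E16.5 (2.11) and E17.5 (1.93) and Pdx1-GFP+ E9.5 (1.75), overlapped.

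In Pdx1-Cre lineage cells followed from E10.5 to E15.5, 747 of 16343 genes (4.57%) changed with the day, and 0 members did. Vegfa group means there lay between 4.62 and 11.1 CPM and changed by 0.16 ± 0.15 per day on the log2 scale (edgeR, adjusted p = 0.657). Nrp1 means lay between 48.8 and 126.4 CPM (0.20 ± 0.10 per day, adjusted p = 0.329), Vegfb changed by 0.13 ± 0.13 and Cxcl12 by 0.40 ± 0.31 per day. Of 73 unmarked Ngn3-GFPlow cells of E14.5, 56 had Cxcl12, 41 had Vegfa and 34 had both at 10 CPM or more. Nrp1 was found in 45, and Nrp1 with Vegfa in 29. Genes this common share many cells without any link between them, and an excess over that was not tested. As length-scaled CPM, the same sort (all cells) held 153.5 for Cxcl12, 52.9 for Nrp1, 13.1 for Vegfb, 10.47 for Vegfa and 2.50 for Cxcr4.

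The droplet libraries showed the members in the cells around the epithelium. Barcodes were classed by at least 2 UMIs of 1 of 4 markers: Epcam (epithelium, 489 and 977 barcodes in libraries 1 and 2), Pecam1 (endothelium, 76 and 181), Col3a1 (mesenchyme, 2092 and 3750) and Ptprc (leukocytes, 25 and 26). The classes held their other markers: 9 further endothelial genes summed to 3144 and 4815 CPM (here of the UMIs summed over a class) in Pecam1 barcodes against 42.7 and 48.4 in Epcam barcodes. Pecam1 barcodes of library 1 also held 405.8 CPM of 8 endocrine markers (277.7 in Epcam barcodes) and 147.4 CPM of 7 epithelial markers, against 27.6 and 63.7 CPM in library 2. Red cell genes were found in every class: 4 erythroid markers summed to between 848.2 and 4966 CPM in Epcam, Pecam1 and Col3a1 barcodes, and Hba-a1, a globin gene, had a UMI in 96.1% and 86% of Epcam barcodes. The part of RNA from other cells in the low levels and shares given next was not tested. The 2 libraries shared 37 barcode sequences, 32 among the barcodes kept. The median depth was 21169 and 13103 UMIs in Epcam, 13048 and 7951 in Pecam1, and 8232 and 4144 in Col3a1 barcodes.

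Kdr and Flt1 were genes of the Pecam1 class. Kdr stood at 510 and 584 CPM in Pecam1 barcodes, 0.460 and 0.865 in Epcam and 6.55 and 6.96 in Col3a1 barcodes. It had a UMI in 73.7% (95% exact binomial interval 62.3 to 83.1) and 95.6% (91.5 to 98.1) of Pecam1 barcodes, against 0.818% and 1.23% of Epcam barcodes. When each barcode was thinned to 2000 UMIs, the shares were 42.1% and 69.6% against 0.204% and 0%. Flt1 stood at 391 and 377 CPM in Pecam1, 0.383 and 0.721 in Epcam and 0.148 and 1.38 in Col3a1 barcodes, and had a UMI in 65.8% and 80.7% of Pecam1 barcodes against 0.613% and 1.02% of Epcam barcodes. Pecam1 barcodes held 62.7% and 68.9% of all Kdr and 72.5% and 73.7% of all Flt1 UMIs of a library. Nrp1 was shared by all classes: 250 and 324 CPM in Pecam1, 145 and 303 in Col3a1, 91.0 and 95.4 in Epcam and 179 and 65.3 in Ptprc barcodes. Epcam barcodes were the lowest of the first 3 in both libraries.

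The ligand genes were placed the other way. Vegfa was highest in Epcam barcodes, with 25.3 and 11.9 CPM, against 8.31 and 1.84 in Pecam1 (11 and 3 UMIs in all) and 7.64 and 5.03 in Col3a1 barcodes. It had a UMI in 39.1% and 14.3% of Epcam barcodes (3.89% and 2.87% after thinning) and in 13.2% and 1.66% of Pecam1 barcodes (2.63% and 0%). The library with the higher Vegfa in Pecam1 barcodes was the one with more endocrine markers and the lower Kdr share there. None of the 25 and 26 Ptprc barcodes had a Vegfa UMI (95% exact binomial interval up to 13.7% and 13.2%; median depth 10330 and 5089 UMIs). Epcam barcodes held 47.5% and 38.6% of all Vegfa UMIs. Vegfb was the most even, with 36.65 and 23.9 in Epcam, 25.7 and 13.47 in Pecam1 and 25.7 and 19.8 in Col3a1 barcodes. Cxcl12 was foremost a gene of the mesenchyme: 237 and 369 CPM in Col3a1, 39.03 and 60.99 in Epcam and 12.85 and 14.7 in Pecam1 barcodes, so that Col3a1 barcodes held 82.5% and 79.3% of its UMIs and Epcam barcodes 8.73% and 10%. It had a UMI in 60% and 62.6% of Col3a1 barcodes and in 11.8% and 9.39% of Pecam1 barcodes (29.9% and 43.9%, and 2.63% and 3.31%, after thinning). Leukocyte-marked Smart-seq2 cells held next to no Cxcl12, and in Ptprc barcodes its share was 4% and 7.69% (1 and 2 barcodes). The Pecam1 shares lay within the exact intervals of those (0.101 to 20.4% and 0.946 to 25.1%). Intervals this wide, from 25 and 26 barcodes, cannot tell low expression from RNA of other cells, and this was not tested. Cxcr4 stood at 7.56 and 12.9 in Pecam1, 2.84 and 1.51 in Epcam and 0.443 and 0.663 in Col3a1 barcodes.

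**Figure D5:**
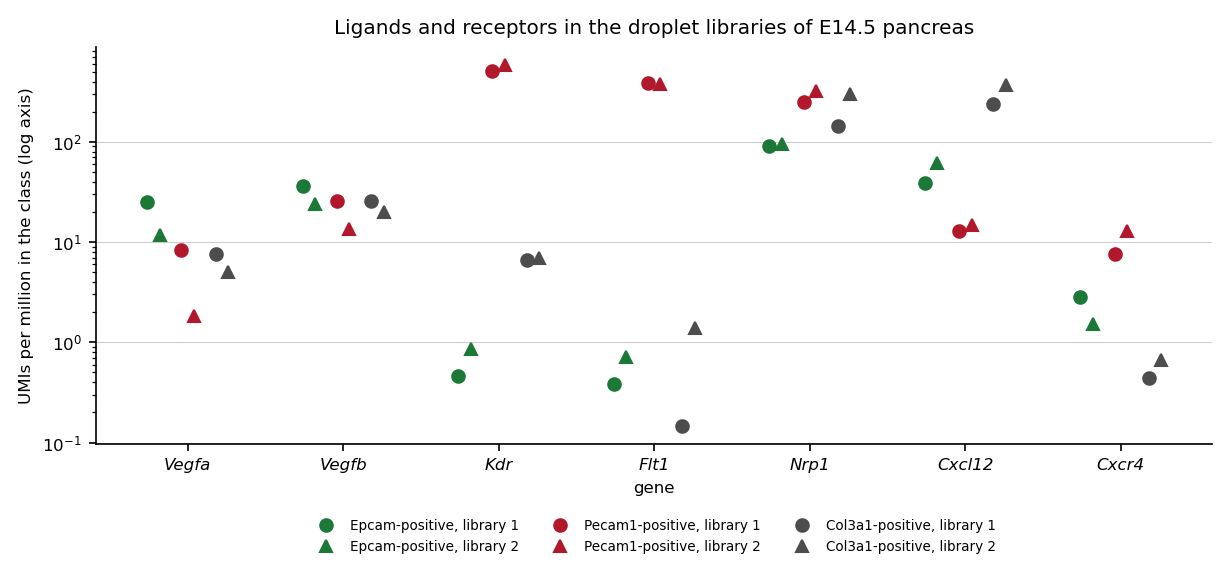
CPM of summed UMIs (log axis) of the 7 members in Epcam, Pecam1 and Col3a1 barcodes of library 1 (circles) and library 2 (triangles). Kdr and Flt1 lie at 377 or more in Pecam1 and under 1 in Epcam barcodes, and Cxcl12 is highest in Col3a1 barcodes.

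With the library as a term of the fit, edgeR called 4374 of 13687 genes between Epcam and Pecam1 barcodes (32%) and 7 of 7 members. Vegfa (2.01 ± 0.39, adjusted p = 0.00208), Vegfb (0.74 ± 0.23, adjusted p = 0.0275) and Cxcl12 (1.95 ± 0.24, adjusted p = 4.0e-05) were higher in epithelium. Kdr (-9.56 ± 0.32), Flt1 (-9.34 ± 0.46), Nrp1 (-1.52 ± 0.30, adjusted p = 0.00191) and Cxcr4 (-2.17 ± 0.56, adjusted p = 0.0102) were lower. The Vegfb call was lost with DESeq2 (adjusted p = 0.0634) and with a gate of 1 UMI (0.0551). Between Epcam and Col3a1 barcodes, where 47.7% of genes were called, 5 members were: Vegfa (1.51 ± 0.24, adjusted p = 0.000275) and Cxcr4 (1.96 ± 0.57, adjusted p = 0.0121, lost with a gate of 1 UMI at 0.0741) were higher in epithelium and Cxcl12 (-2.58 ± 0.18), Kdr (-3.30 ± 0.32) and Nrp1 (-1.19 ± 0.30, adjusted p = 0.00521) lower. Pecam1 against Col3a1 barcodes (28% of genes called) gave 4 members, with Kdr, Flt1 and Cxcr4 higher in endothelium by 6.26 ± 0.25, 8.99 ± 0.43 and 4.13 ± 0.62 and Cxcl12 lower (-4.53 ± 0.23). Vegfa (-0.50 ± 0.44) and Nrp1 (0.33 ± 0.30) did not pass there. These 3 comparisons share their classes, and 2 libraries leave few degrees of freedom. Without the library term edgeR called 3, 3 and 4 members. Lost there between Epcam and Pecam1 barcodes were Vegfa, Vegfb, Nrp1 and Cxcr4 (edgeR, adjusted p = 0.149, 0.365, 0.0726 and 0.0533). Between Epcam and Col3a1 barcodes Vegfa and Nrp1 were lost (edgeR, adjusted p = 0.141 and 0.121).

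Inside the epithelium, Epcam barcodes with at least 2 UMIs of Chga, a granule protein gene of endocrine cells, were set against those with none (30 against 442 in library 1 and 89 against 819 in library 2). Vegfa stood at 54.3 against 22.2 CPM in library 1 and at 26.9 against 9.75 in library 2, higher in Chga-positive barcodes by 0.95 ± 0.25 on the log2 scale (edgeR, adjusted p = 0.000702). Cxcl12 was higher too, at 67.6 against 35.99 and 118.6 against 52.5 (0.68 ± 0.19, adjusted p = 0.00159). Vegfb was lower, at 23.85 against 37.9 and 17.9 against 24.9 (-0.98 ± 0.27, adjusted p = 0.00166), and so was Nrp1, at 49.02 against 94.0 and 56.8 against 99.7 (-1.26 ± 0.20, adjusted p = 2.37e-09). The fit scales libraries by TMM, and its 4 differences lie below the ratios of the printed CPM, which in log2 were 1.29 and 1.46 for Vegfa, 0.91 and 1.18 for Cxcl12, -0.67 and -0.47 for Vegfb and -0.94 and -0.81 for Nrp1 in libraries 1 and 2. These 4 members were among 4010 of 12173 genes called (32.9%). With 2 classes in 2 libraries and a library term, this fit had very few degrees of freedom. Its p-values rest mostly on a spread estimated over all genes, not on the spread of a gene between libraries. DESeq2 called only Nrp1, with an adjusted p of 0.0747 for Vegfa, 0.0785 for Cxcl12 and 0.118 for Vegfb, and without the library term 0 members were called. The Chga-positive difference in Cxcl12 was 0.06 with a gate of 1 UMI (edgeR, adjusted p = 0.817). The sorted cells of E14.5, split by Ngn3-GFP and not by Chga, went the other way for Cxcl12. It averaged 1.56 CPM in Ngn3-GFPhigh and 451.6 CPM in Ngn3-GFPlow cells, and the reason for this was not tested.

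Other genes of the same pathways were read from lists in the same fits. Of the VEGF ligands, Pgf (placental growth factor, a ligand of Flt1) was 4.03 ± 1.17 above Ngn3-GFPlow in Ngn3-GFPhigh cells of E14.5 on the log2 scale (3.96 without marked cells, adjusted p = 0.0345), and was higher in late than in early Ngn3-GFP+ cells (4.85 ± 0.83, and 4.53 without marked cells), in late Ngn3-GFP+ than in duct cells (2.51 ± 0.86) and in Chga-positive droplet barcodes (2.55). Vegfc, the ligand of lymphatic vessels, was lower in Epcam than in Pecam1 and Col3a1 barcodes (-4.82 and -3.33). Of the receptors, Nrp2 was lower in hormone than in Pdx1-Cre cells of E15.5 (-5.97 ± 1.15), and both Nrp2 (-6.66) and Flt4 (-8.40) were lower in Epcam than in Pecam1 barcodes. Ackr3, the second receptor of the Cxcl12 protein, was lower in Epcam than in Pecam1 and Col3a1 barcodes (-6.00 and -5.90).

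The 12 other vessel signals moved mainly between the droplet classes: 10 of 12 were lower in Epcam than in Pecam1 barcodes, with a median log2 fold change of -4.90 against 0.172 over all genes, led by Aplnr (-10.29), Tek (-9.46), Apln (-7.46) and Adm (-7.39). In the sorted cells 0 to 4 passed per comparison. Of 10 tested in hormone against Pdx1-Cre cells of E15.5, 4 were lower (median -5.12 against -0.099 over all genes): Angpt1 (-10.66), Thbs1 (-10.37), Sema3a (-4.91) and Ephb4 (-2.29). In Ngn3-GFPhigh against Ngn3-GFPlow cells, Dll4, a Notch ligand, was higher at E13.5 (2.53 ± 0.55) and E15.5 (2.51), and Thbs1 (-7.00) and Ephb4 (-3.54) were lower and Sema3a (4.16), a ligand of Nrp1, higher at E14.5. Thbs1 was also lower at E15.5 (-13.23). Without marked cells Dll4 was called at E13.5 (2.05) but not at E15.5 (1.89, adjusted p = 0.0640), Thbs1 on neither day (adjusted p = 0.129 and 0.157), and Ephb4 and Sema3a still at E14.5 (-3.84 and 5.06). In the hormone comparison, without marked cells, 2 of 8 passed, Angpt1 (-9.84) and Ephb4 (-2.13). Late Ngn3-GFP+ cells had more Angpt2 (3.24) and Dll4 (2.51) and less Angpt1 (-5.69) and Ephb4 (-2.40) than duct cells. In late against early Ngn3-GFP+ cells, 0 of 11 tested passed.

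Vegfa is a known target of the hypoxia-inducible factors. Of 14 other genes of the hypoxia response, 6 were lower and 1 higher in late than in early Ngn3-GFP+ cells, while Vegfa was higher; 19.7% of all genes were called there, and the list's median was -0.71 against -0.031 over all genes. Without marked cells 5 were lower and 1 higher, with 2302 of 18484 genes called. In the fit over all cells, 10 of 10 leukocyte markers and 5 of 7 liver markers were lower in the late cells too, and without marked cells 0 of 7 and 5 of 7 were; the part of such cells was otherwise not tested. Ldha fell by 3.67 ± 0.60 and Pgk1 by 1.90 ± 0.22 on the log2 scale, both enzymes of glycolysis, and Ndrg1 rose by 1.41 ± 0.25; without marked cells these were -2.64, -1.10 and 0.94, each called. Ldha was also lower in the Ngn3-GFPhigh fraction on each day (-3.25, -4.59 and -6.00), as were the 10 leukocyte markers; without marked cells its differences were -2.04 (adjusted p = 0.276), -3.98 (adjusted p = 0.00920) and -5.22 (adjusted p = 0.0197). It was lower, too, in late Ngn3-GFP+ than in duct cells (-3.56). In Chga-positive barcodes, where Vegfa was higher, Ldha was lower (-2.17) and 2 of 13 list genes were higher and 4 lower. Between Ins1-RFP+ and Gcg-GFP+ cells and in the explants 0 of 14 passed.

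Over the 29 Smart-seq2 groups, the genes whose log2(CPM + 1) means ran most like those of Vegfa were Gm13722 (Pearson r = 0.871), Sowahc (0.858) and Zfp488 (0.856), out of 11461 genes that reached 20 CPM in a group. For Nrp1 they were Pmf1 (0.934), Mcm6 (0.927) and Kif22 (0.921), the second a subunit of the replicative helicase. For Cxcl12 they were 2810055G20Rik (0.894), Gpm6b (0.889) and Spp1 (0.885), the last the osteopontin gene of duct cells. Vegfb had weaker likenesses, with Mogs (0.743), Cdk2ap2 (0.741) and Abhd17c (0.731), as had Flt1 with Sox17 (0.767), Pga5 (0.734) and Fst (0.732). Kdr and Cxcr4 did not reach 20 CPM in any group and were not ranked. The points share cells of like reporters and libraries of like depth, and the values describe these groups.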

How the data were processed

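The authors made the deposited Smart-seq2 table, which holds whole read counts per gene, with TopHat2 2.1.0, Bowtie2 and HTSeq 0.6.0 on mm10, and the droplet UMI count matrices with Cell Ranger 2.0.2, per the submitters' processing notes; a deposited TPM table was not used. All 2197 samples were assigned to groups from their labels, and 0 columns of per-sample values belonged to no sample. Counts were summed per set (Smart-seq2) or per library and class (droplets), with 92 spike-in rows left out. What a set shares is not given in the labels, so a p-value covers no more than the spread from set to set, and that spread may be technical. Tests were edgeR 4.0.16 quasi-likelihood fits (TMM, filterByExpr, R 4.3.3), with a Benjamini-Hochberg adjusted p under 0.05 over all genes tested. The fits were also run on simulated counts, with the same spread for all genes and changes only in genes of high count. That run did not cover changes in genes with few counts. Groups of related comparisons share one fit and one spread.

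Droplet barcodes were kept from 1000 genes upwards where mitochondrial UMIs made up 10% or less; Scrublet (scanpy 1.11.5) marked 4 of 3406 barcodes in library 1 and 189 of 6764 in library 2, which were removed, leaving 3402 and 6575. Barcodes positive for 2 or more of the 4 markers were left out. Intervals and the limit of 3 counts take in counting error alone: Smart-seq2 reads carry no molecular identifiers, so PCR copies are counted too. Alternatives were DESeq2 1.42.0, RLE size factors, no filter on low counts, a block by set number (or no block where the set or library was already a term), 1 fit over all 29 groups, no marked cells, gates of 1 and 3 UMIs, no doublet filter, and leaving out each set or library. Named in each comparison were the 7 members, up to 4 called genes of each pathway list with the largest change, and the 3 genes most like each member by group means. The members and lists were chosen with earlier results of these data known.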

Additional observations from a re-analysis of the deposited data

Results flagged for a closer look

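Among groups of 4 to 10 sets, 9 of 54 held a highest set that lay far from the others of its group by Dixon's test at the 95% level. Chance alone puts about 1 in 20 groups there, and several of these values rest on levels near 0. In Smart-seq2 sets, Flt1 stood at 2.79 CPM in set 4 of Pdx1-Cre E13.5, where the other 3 sets held 0.141 CPM or less, and Cxcl12 at 3.28 CPM in set 4 of the U0126 explants, where the next held 0.428 CPM.

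The other 7 lie within single cells told apart by a hormone or by Neurog3. Vegfa stood at 93.4 CPM in the Ins2-dominant cells of Ngn3-GFP+ E17.5 set 1, against 34.3 CPM in the next of 8 sets. Cxcl12 stood at 56.6 CPM in the Gcg-dominant cells of Ngn3-GFP+ E16.5 set 2, against 20.3 CPM in the next. In the Ngn3-GFPhigh sort, Nrp1 stood at 106.2 CPM in Neurog3-positive cells of E15.5 set 1 (next 23.7 CPM) and at 56.6 CPM in Neurog3-negative cells of E13.5 set 3 (next 17.2 CPM). Cxcl12 stood at 83.75 CPM in Neurog3-positive cells of E13.5 set 3 (next 32.5 CPM) and at 3.87 CPM in Neurog3-negative cells of E15.5 set 2 (next 1.67 CPM). Flt1 stood at 3.05 CPM in Neurog3-negative cells of E15.5 set 1 (next 0.261 CPM).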

How the results depend on the processing

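Of the members' values recomputed under another setting, 625 kept their direction and their side of the threshold, 32 lost a call, 5 gained one, 8 changed sign and 40, all shares of barcodes with a UMI, moved on thinning. When a set or library was left out, the numbers were 414, 40, 1, 21 and 28, the last being single-library values that moved by over 1 SE. The cause was not tested, except that leaving out sets or cells lowers the number of samples or counts.

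The number of members called changed as follows. With DESeq2 it was 4 in place of 1 at E13.5 (Ngn3-GFPhigh against Ngn3-GFPlow), 3 in place of 5 for late against early Ngn3-GFP+ cells (Flt1 had no adjusted p there), 1 in place of 0 for both comparisons within sets, and 1 in place of 4 for Chga. Without marked cells it was 0 at E13.5, 1 in place of 2 at E15.5 and 2 for late against early. With no filter on low counts it was 1 at E15.5. With no library term it was 3 in place of 7 for Epcam against Pecam1, 3 in place of 5 for Epcam against Col3a1 and 0 for Chga. Leaving out 1 set gave 0 to 2 at E13.5, 2 to 3 at E14.5, 0 at E15.5, 2 to 5 for late against early, 2 to 3 against duct and 1 to 3 for hormone against Pdx1-Cre cells.

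The number of genes called with DESeq2 was 2581 in place of 1181 at E13.5, 4288 in place of 2857 at E14.5, 3662 in place of 1706 at E15.5, 1124 in place of 122 for Ins1-RFP+ against Gcg-GFP+, 4194 in place of 2541 for hormone against Pdx1-Cre, 1456 in place of 747 per day of Pdx1-Cre, 12 in place of 0 for U0126, 319 in place of 36 for control against fresh cells, 1939 in place of 776 for Ins2- against Gcg-dominant, 3323 in place of 1611 for Neurog3 and 1891 in place of 4010 for Chga. Without marked cells it was 157, 1769 and 849 on the 3 days and 2302 for late against early. With no filter it was 1826 per day and 60 for control against fresh, and in 1 fit over 29 groups 259 for Ins1-RFP+ against Gcg-GFP+ and 59 for control against fresh. With no library term it was 2344, 3304, 1922 and 457 for the 4 droplet comparisons, and 2411 for Chga with a gate of 3 UMIs. Leaving out 1 set gave 408 to 1284, 1571 to 2973 and 354 to 742 genes on the 3 days, 2704 to 3772 for late against early, 3130 to 4981 against duct, 7 to 77 for Ins1-RFP+ against Gcg-GFP+, 1387 to 2675 for hormone against Pdx1-Cre, 507 to 856 per day, 0 for U0126, 3 to 33 for control against fresh, 576 to 712 for Ins2- against Gcg-dominant and 1083 to 1690 for Neurog3.

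Set numbers were not taken as pairs: deviations of same-numbered sets correlated by 0.180, 0.079 and 0.087 at E13.5, by 0.151, 0.045 and 0.062 at E14.5, by 0.103, 0.065, 0.083 and 0.188 in the explants and by -0.138 to 0.152 elsewhere. In fits with a replicate block by set number, the members called were 2 at E13.5, 0 at E15.5 and 3 for late against early, and the genes called 1816 at E14.5, 35 for Ins1-RFP+ against Gcg-GFP+ and 57 for control against fresh.

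The sign changed only for values that no test had called. Vegfa turned to -0.14 (block) and -0.50 (no marked cells) at E13.5, to -0.35 (no marked cells) at E15.5, to 0.23 (block) for control against fresh and to -0.54 (no block) for Neurog3; Vegfb to 0.26 (no marked cells) at E14.5 and to 0.054 (block) for control against fresh; and Cxcr4 to -1.04 (gate of 1 UMI) for Chga. Leaving out 1 set, Vegfa ran from -0.59 to 0.56 at E13.5, -0.43 to 0.08 for control against fresh and -0.31 to 0.36 for Neurog3; Vegfb from -0.55 to 0.37 at E14.5, -0.71 to 0.35 at E15.5, -0.48 to 0.017 for hormone against Pdx1-Cre and -0.28 to 0.33 for control against fresh; and Cxcr4 from -0.59 to 3.73 for late against early and -0.10 to 0.12 per day. In single libraries, Flt1 for Epcam against Col3a1 was -0.94 or 1.38, Vegfa for Pecam1 against Col3a1 -1.45 or 0.12 and Cxcr4 for Chga -0.69 or 1.29.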
